A study of Mus musculus with 2 samples.

Results

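The genes described are 8 members of the fibroblast growth factor (FGF) system in mesenchymal cells of the mouse large intestine: the ligands Fgf2, Fgf7, Fgf9, Fgf10 and Fgf18, the receptors Fgfr1 and Fgfr2, and the secreted FGF-binding protein Fgfbp1. They were found by symbol among 32285 genes, and all 8 are present in both tables. The set was chosen by measured values: Fgfbp1 was known to be high in the Foxl1-high cells of the GF library and nearly absent from the ff library. Differences of the members between cells and libraries are therefore given as a description.

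The cells were sorted from the colon of adult mice as CD45- EpCAM- CD31- gp38+, that is without markers of leukocytes, epithelium and endothelium and with podoplanin, a surface protein of fibroblasts. The GF library came from Balb/c mice and the ff library from C57BL/6 mice, with 1 library each, and the number of mice in each is not given. The mice were adult, described in the design text as over 8 weeks old. Germ-free status is known only from the name GF and from the design text of the series, and the abbreviation ff is not spelled out in the sources used here. Strain, germ-free status and library therefore coincide, and their parts in any difference cannot be told apart. No test between the libraries is possible, and every interval below covers counting error only (exact, 95%).

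FGFs are secreted signals that bind receptor tyrosine kinases together with heparan sulphate, the sugar chains of cell-surface and matrix proteoglycans. In the gut, Fgf7 and Fgf10 are made by mesenchyme and act mainly on the epithelial splice form of Fgfr2, whereas Fgf9 and Fgf18 act on receptor forms typical of mesenchyme. Fgfbp1 binds FGFs that are held on heparan sulphate and carries them to receptors. Fgfbp1 lies on the minus strand of mouse chromosome 5 between positions 43978858 and 43981779 (GRCm38, gene model ENSMUSG00000048373).

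The promoters of the 2 genes that were highest in Foxl1-high cells relative to other fibroblasts, Fgfbp1 and Fgf9, are shown with that of Fgf10, which was not. The windows run from 250 bases before to 30 bases after the RefSeq transcription start (GRCm38.p6), and are written 5′ to 3′ with motif matches in capitals. The Fgfbp1 window is chr5:43981770-43982049 on the minus strand, the Fgf9 window chr14:58072436-58072715 on the plus strand and the Fgf10 window chr13:118714449-118714728 on the plus strand.
Fgfbp1: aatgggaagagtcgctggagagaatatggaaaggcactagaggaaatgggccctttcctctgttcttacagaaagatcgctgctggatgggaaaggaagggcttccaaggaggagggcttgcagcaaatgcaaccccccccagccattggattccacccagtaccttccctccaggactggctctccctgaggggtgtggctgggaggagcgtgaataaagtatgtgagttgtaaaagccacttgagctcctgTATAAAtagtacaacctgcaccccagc
Fgf9: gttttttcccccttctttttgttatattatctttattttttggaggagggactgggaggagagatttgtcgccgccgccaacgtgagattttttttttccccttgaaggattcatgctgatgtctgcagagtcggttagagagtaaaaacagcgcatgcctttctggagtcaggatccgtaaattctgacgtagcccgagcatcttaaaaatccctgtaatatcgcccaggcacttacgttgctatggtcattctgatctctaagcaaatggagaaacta
Fgf10: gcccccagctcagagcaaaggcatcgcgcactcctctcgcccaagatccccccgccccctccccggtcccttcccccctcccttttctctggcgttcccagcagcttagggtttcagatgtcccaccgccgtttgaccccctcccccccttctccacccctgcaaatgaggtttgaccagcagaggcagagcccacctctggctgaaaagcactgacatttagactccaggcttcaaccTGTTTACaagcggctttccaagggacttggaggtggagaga
RefSeq windows were matched for 7 of the 8 genes, all but Fgfr1. Searched on both strands in the full windows of 300 bases, the letters TATAAA occurred in the Fgfbp1 window, beginning 4 bases into the transcript as RefSeq marks its start. TATAAA is present in 13.6% of the 32851 promoter windows of the same length. A forkhead core, TGTTTAC, the letters bound by the family of Foxl1, occurred in the Fgf10 window 11 bases before the start, and is present in 3.65% of all windows. No TGTTTAC occurred in the windows of Fgfbp1 or Fgf9. The AP-1 letters TGANTCA (7.81% of all windows) and the TCF/LEF letters CTTTGA (16.003%) occurred in none of the 7. A match is a description of these letters only.

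Counts are of UMIs (unique molecular identifiers, 1 for each captured transcript), and levels are given as counts per 1000000 (CPM) of the UMIs of the cells that were summed. The GF table held 105331294 UMIs in 16388 barcodes and the ff counts came to 119866589 UMIs in 13704 barcodes, and 55 barcode sequences occurred in both. After filtering, 14299 GF and 12164 ff cells remained, with medians of 6351 and 8861.5 UMIs per cell. Clusters were found without the 8 genes or the other FGF lists among the variable genes, and named from marker lists. The Foxl1-high-like cells numbered 996 in GF (6.97% of the cells) and 2105 in ff (17.3%), and the other fibroblast-like cells 11484 in GF and 9585 in ff. Of 14 Foxl1-high markers, 13 were detected in the class. Vstm2a had no UMI in it in either library, and 34 UMIs in GF and 21 UMIs in ff other fibroblast-like cells. The 14 markers summed to 7028 CPM in GF and 6101 CPM in ff cells of the class, against 743 CPM and 866 CPM in other fibroblast-like cells. Foxl1 itself, the forkhead factor of subepithelial cells, was at 91.4 CPM in GF and 55.3 CPM in ff. In other fibroblast-like cells it was at 5.64 CPM in GF and 3.99 CPM in ff. Markers of epithelium summed to 4.62 CPM in GF and 6.09 CPM in ff Foxl1-high-like cells, with 3 of the 9 at 0 in GF and 1 in ff. The 8 lamina propria markers summed to 6316 CPM in GF and 3891 CPM in ff cells of the class. In other fibroblast-like cells they summed to 4291 CPM in GF and 4034 CPM in ff. Adamdec1 alone gave 5724 CPM in GF and 3304 CPM in ff cells of the class. Adamdec1 and Prdm1 were higher than in other fibroblast-like cells in both libraries, and the rest of that list was lower. The 9 smooth muscle markers summed to 2438 CPM in GF and 2099 CPM in ff, mostly from Acta2 and Tagln. Des, Cnn1 and Lmod1 were lower than in other fibroblast-like cells in both libraries. The 7 reticular cell markers summed to 281 CPM in GF and 81.9 CPM in ff, mostly from Cxcl13. The 4 haemoglobin genes summed to 207 CPM in GF and 357 CPM in ff. The part of these marker genes in the differences below was not tested.

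Fgfbp1 was the member with the largest difference. Its Foxl1-high-like cells held 4845 UMIs in GF (639 CPM, interval 621 to 657) against 18 UMIs in ff (0.929 CPM, interval 0.551 to 1.47). Without a pseudocount the ratio was 688, with a counting interval of 435 to 1161, and on the log2 scale with 1 CPM added it was 8.37. Among the 11645 genes measured in that comparison (at least 50 UMIs over the 2 sums), it ranked first. The choice of Fgfbp1 rests on this same contrast, so the rank supports nothing further.

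**Figure D1:**
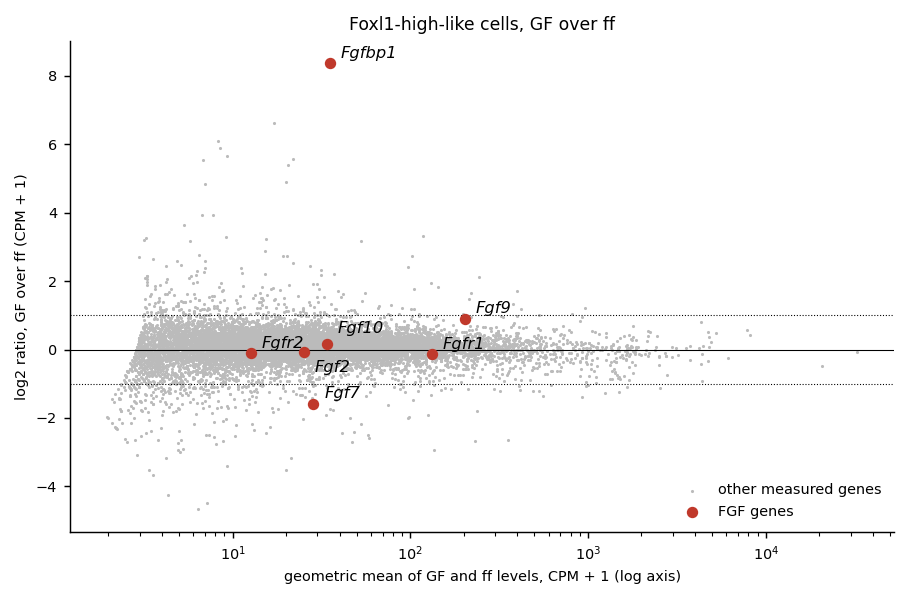
Log2 ratio of GF over ff in Foxl1-high-like cells (y axis, 1 CPM added) against the geometric mean level of the 2 libraries (x axis, log scale) for 11645 measured genes (grey) and the 7 measured FGF genes (red), with dotted lines at a 2-fold difference. Fgfbp1 lies at 8.37, Fgf9 at 0.91 and Fgf7 at -1.59, and the other 4 lie near 0.

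In GF, the Foxl1-high-like class held 98.0% of all Fgfbp1 UMIs of the retained cells. In ff it held 75.0%, of 24 UMIs in all. A Fgfbp1 UMI was found in 65.8% of GF Foxl1-high-like cells (interval 62.7% to 68.7%) and in 0.618% of ff ones (interval 0.329% to 1.05%). After thinning each cell to 2000 UMIs, the shares were 46.3% in GF and 0.0957% in ff. Lymphocyte-like cells, which should lack the gene, gave 2 UMIs in 1231 GF cells (0.162% of cells, median depth 2583 UMIs, against 7256 UMIs in Foxl1-high-like cells) and none in 109 ff cells (interval up to 3.33%, median depth 4494 UMIs, against 8755 UMIs). The GF share lay far above that level, and the ff lymphocyte-like cells were too few to set a background for the ff share. Among ff other fibroblast-like cells 0.0209% had a UMI (interval up to 0.0754%, median depth 8939 UMIs), below the interval of the ff Foxl1-high-like share. The myeloid-like cells of ff held 4 of its 24 UMIs, in 3 of 57 cells.

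The GF cells were not uniform. No Fgfbp1 UMI was found in 341 of the 996 GF cells, 112 had 1, 199 had 2 to 4, 176 had 5 to 9 and 168 had 10 or more. The median was 2 and the highest cell had 40. In ff, 2092 of 2105 cells had none and no cell had more than 4. After thinning, Fgf9 was found in 40.0% of the 460 GF cells with Fgfbp1 and in 40.0% of those without it.

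**Figure D2:**
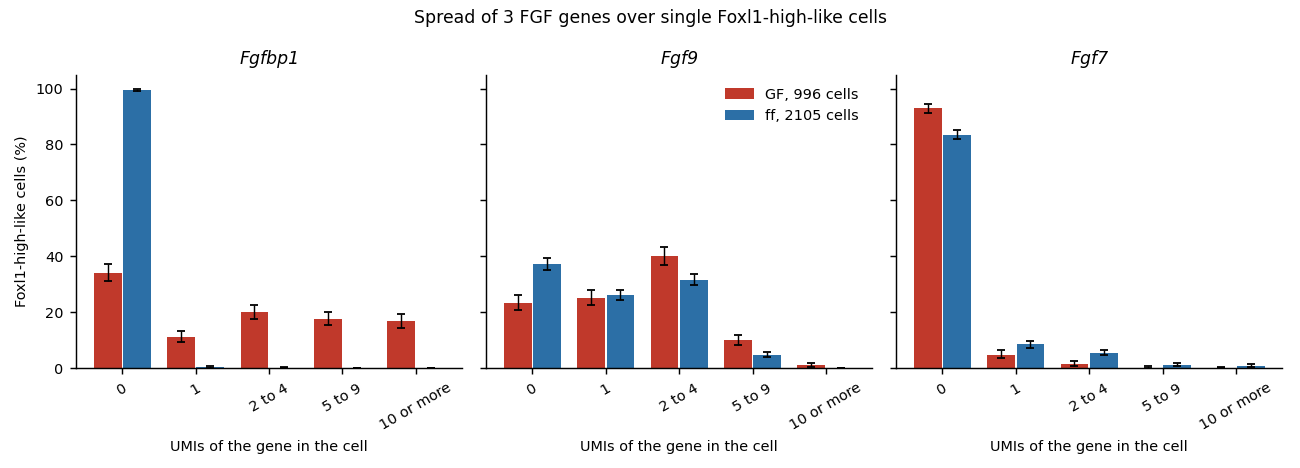
Share of Foxl1-high-like cells (y axis, %) by the UMIs of Fgfbp1, Fgf9 and Fgf7 in the cell (x axis), for 996 GF and 2105 ff cells, with exact 95% binomial intervals. Fgfbp1 spreads over all bins in GF, with 168 cells at 10 or more, and sits at 0 in 99.4% of ff cells.

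Both larger clusters of the class carried Fgfbp1 in GF. The cluster led by Wif1, a secreted WNT inhibitor, had 743 CPM in GF (3583 UMIs, 660 cells) against 0.723 CPM in ff (9 UMIs, 1448 cells). The cluster led by Nrg1, an EGF-family ligand, and the endothelin receptor Ednrb had 458 CPM in GF (1262 UMIs, 336 cells) against 1.31 CPM in ff (9 UMIs, 641 cells). Outside the class, Fgfbp1 had 45 UMIs in 11484 GF cells (0.566 CPM) and 2 UMIs in 9585 ff cells (0.0232 CPM), and it was not measured in that comparison. The Myh11-led smooth muscle-like cluster had 50 Fgfbp1 UMIs in GF (26.9 CPM), all in 7 of its 303 cells, and none in 175 ff cells, where 3 counts would be 1.93 CPM. The Cd36-led cluster had 15 UMIs in 4 of 374 GF cells and none in 459 ff cells.

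A gate on markers in each cell was tried in place of clusters. In 1283 GF cells with fibrillar collagen RNA and UMIs of at least 4 Foxl1-high markers after thinning, Fgfbp1 stood at 495 CPM, against 0.779 CPM in 2288 such ff cells. Among GF cells, those outside the gate were at 1.98 CPM.

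The genes whose level followed that of Fgfbp1 most closely over 42 cluster sums of at least 50 cells were Unc13c (Pearson r = 0.83), Cntnap5a (r = 0.78) and Cps1 (r = 0.75). The points share 2 libraries, so r is descriptive. For Fgfbp1 alone, the 12217 genes ranked needed 200 UMIs over both libraries together, which lets in genes nearly absent from ff. The other members were ranked against 10964 genes with 200 UMIs or more in each library. A match to Fgfbp1 can therefore restate the contrast that chose it. Both rankings left out genes without a symbol, mitochondrial genes, and symbols that begin with Gm or end in Rik. Unc13c, a synaptic vesicle-priming gene, had 36.3 CPM in GF and 0.310 CPM in ff Foxl1-high-like cells, from 275 and 6 UMIs. Cntnap5a, a neurexin-family adhesion protein, had 26.4 CPM in GF and 8.00 CPM in ff, and Cps1, an enzyme of the urea cycle, 12.1 CPM in GF and 5.47 CPM in ff.

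Of 19 other genes within 500 kb of Fgfbp1, 6 were measured in Foxl1-high-like cells. Of these, 1 was at least 2-fold higher in GF and 0 lower, beside 2.34% higher and 2.75% lower of all 11645 measured genes. The higher neighbour was Prom1, which encodes the membrane protein prominin-1 and lies 11.8 kb away. It was at 55.1 CPM in GF against 18.3 CPM in ff (log2 ratio 1.54). In other fibroblast-like cells Prom1 was at 1.17 CPM in GF and 1.31 CPM in ff (log2 ratio -0.09). On the scale with 1 CPM added, no neighbour measured in those cells passed 2-fold, but 2 low genes differed in UMIs. Bst1, 134.9 kb away, had 59 UMIs in GF and 0 in ff, and Gm7879, 64.9 kb away, 60 UMIs in GF and 12 UMIs in ff. Cd38, 66.5 kb away on the other side, was at 60.03 CPM in GF and 55.4 CPM in ff Foxl1-high-like cells (0.11), and the log2 ratios of Cc2d2a, Fbxl5, Tapt1 and Ldb2 lay between -0.19 and 0.48.

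**Figure D3:**
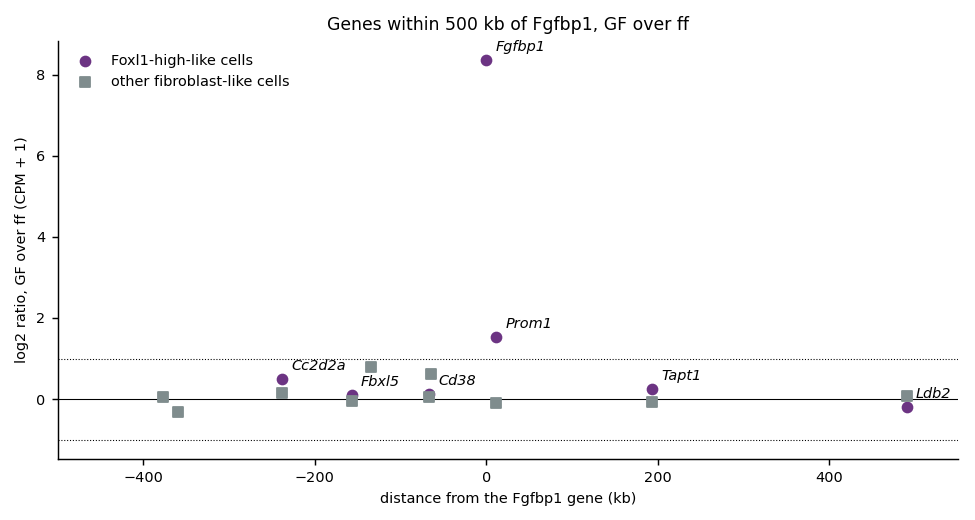
Log2 ratio of GF over ff (y axis, 1 CPM added) of the measured genes within 500 kb of Fgfbp1, by distance from it (x axis, kb), in Foxl1-high-like cells (circles, labelled) and other fibroblast-like cells (squares). Prom1 in Foxl1-high-like cells, at 1.54, is the point past the dotted 2-fold lines, and the 1 CPM added holds the low genes Bst1 and Gm7879 at 0.80 and 0.62 in other fibroblast-like cells.

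Across the members, 1 of the 7 measured was at least 2-fold higher and 1 at least 2-fold lower in GF than in ff Foxl1-high-like cells. Their median log2 ratio was -0.08. The higher one was Fgfbp1, whose value in this contrast chose the set, so its place in the count supports nothing further. Of all 11645 measured genes, 2.34% were 2-fold higher and 2.75% 2-fold lower, with a median of 0.11. In other fibroblast-like cells none of the 7 measured members differed 2-fold, beside 1.34% higher and 1.65% lower of 14425 genes. The medians there were -0.14 for the members and 0.03 for all genes.

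Among ligands, Fgf9 marked the Foxl1-high-like cells in both libraries. It had 2101 UMIs in GF (277 CPM, interval 265 to 289) and 2855 UMIs in ff (147 CPM, interval 142 to 153), and the classes next in order, adventitial or submucosal fibroblast-like, were at 20.4 CPM in GF and 42.1 CPM in ff. Lamina propria fibroblast-like cells were lowest, at 4.16 CPM in GF and 1.43 CPM in ff. Relative to the remaining fibroblast-like cells the log2 ratio was 4.54 in GF and 3.34 in ff.

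Between libraries, Fgf9 was 1.88-fold higher in GF than in ff Foxl1-high-like cells (interval 1.78 to 1.99; log2 ratio 0.91), short of 2-fold. It was higher in both clusters, at 248.9 CPM in GF against 136 CPM in ff in the Wif1-led cluster and at 327 CPM in GF against 169 CPM in ff in the Nrg1/Ednrb-led cluster. Outside the class the direction was mixed, and the pooled log2 ratio was -0.29. In the Chrdl1-led cluster Fgf9 was at 20.9 CPM in GF against 62.5 CPM in ff (log2 ratio -1.54) and in the Sfrp4-led cluster at 2.28 CPM in GF against 13.2 CPM in ff (-2.12). In the Cd36-led lamina propria cluster it was at 19.8 CPM in GF against 3.61 CPM in ff (2.17). The genes most like it over the 42 cluster sums were Galnt15, Fam180a and Fst (r = 0.77, 0.77 and 0.76), with Fst, follistatin, at 370 CPM in GF and 36.2 CPM in ff Foxl1-high-like cells.

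Fgf7, keratinocyte growth factor, was the member 2-fold lower in GF. Foxl1-high-like cells held 117 UMIs in GF (15.4 CPM, interval 12.8 to 18.5) and 937 UMIs in ff (48.4 CPM, interval 45.3 to 51.6), a log2 ratio of -1.59. Most of these UMIs, 103 in GF and 873 in ff, came from the Nrg1/Ednrb-led cluster, at 37.3 CPM in GF against 127 CPM in ff (log2 ratio -1.74). In the Wif1-led cluster the levels were 2.90 CPM in GF and 5.06 CPM in ff, from 14 and 63 UMIs. In ff, 24.8% of the cells of the Nrg1/Ednrb-led cluster had 2 or more Fgf7 UMIs and the highest had 24, and in GF 5.36% did and the highest had 10.

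Elsewhere Fgf7 was broad, and among the 5 class sums it was highest in smooth muscle-like cells at 80.0 CPM in GF and 82.0 CPM in ff. That class pools the Myh11-led cluster, at 89.4 CPM in GF and 92.6 CPM in ff, with the Rgs5-led one. The Rgs5-led cluster was at 59.0 CPM in GF and 45.8 CPM in ff. Its closest marker list was that of pericytes, with all 6 markers at least 2-fold higher than in the remaining cells. Lamina propria fibroblast-like cells had 30.5 CPM in GF and 48.0 CPM in ff. The Chrdl1-led cluster, above the smooth muscle-like class in GF, ran the other way, at 93.4 CPM in GF against 66.7 CPM in ff (log2 ratio 0.48). GF Foxl1-high-like cells were the lowest of the 5 mesenchymal classes for Fgf7, whereas in ff they did not differ from lamina propria fibroblast-like cells beyond counting error. Fgf7 overlaps Fam227b in the annotation, and the sources used here do not give the strand setting of the counting, so reads shared by the 2 genes cannot be told apart.

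**Figure D4:**
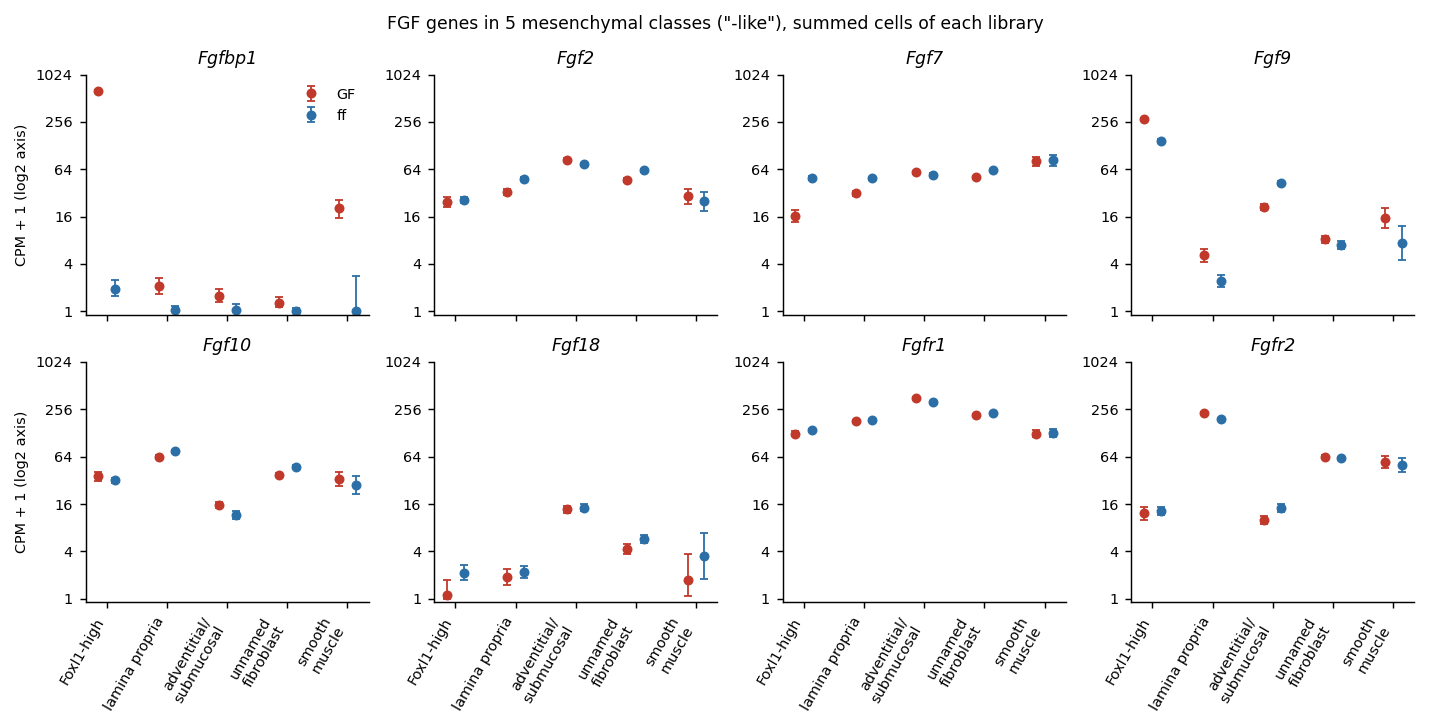
Level of each FGF gene (y axis, CPM + 1, log2 scale) in 5 classes of mesenchymal cells (x axis), GF in red to the left of ff in blue, with exact 95% Poisson intervals for the sum of each class. Fgfbp1 stands out in GF Foxl1-high-like cells at 639 CPM, Fgf9 peaks in the Foxl1-high-like class in GF and in ff, and Fgfr2 and Fgf10 are highest in lamina propria fibroblast-like cells.

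Fgf10, a mesenchymal ligand of the epithelial Fgfr2 form, was highest in lamina propria fibroblast-like cells, at 62.8 CPM in GF and 74.1 CPM in ff. Adventitial or submucosal fibroblast-like cells were lowest, at 14.6 CPM in GF and 10.7 CPM in ff. Foxl1-high-like cells stood between them, at 34.8 CPM in GF and 31.1 CPM in ff. They did not differ from the smooth muscle-like class sum beyond counting error in either library. That sum pools unlike clusters, with the Myh11-led one at 19.4 CPM in GF and 19.3 CPM in ff. The Rgs5-led one was at 61.4 CPM in GF and 54.5 CPM in ff. The order by class did not hold for every cluster: in ff the unnamed Cxcl13-led cluster was at 78.2 CPM and the lamina propria Cd36-led one at 38.5 CPM. Within lamina propria, the Col6a5-led cluster was at 74.7 CPM in GF against 142 CPM in ff (log2 ratio -0.91). In the Nrg1/Ednrb-led cluster the levels were 33.0 CPM in GF and 17.6 CPM in ff (0.87), and in the Wif1-led cluster 35.9 CPM in GF and 38.6 CPM in ff. A GF excess beyond counting error was thus seen in 1 of the 2 clusters. The sum of the class showed none (log2 ratio 0.16, counting interval -0.05 to 0.38 without a pseudocount). Its closest pattern over the cluster sums was that of the lamina propria transcription factor Tcf21 (r = 0.91), followed by Bmp4 and Vangl1.

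Fgf2, basic FGF, was highest in adventitial or submucosal fibroblast-like cells of both libraries. Foxl1-high-like cells did not differ from smooth muscle-like cells beyond counting error in either library, and had 23.5 CPM in GF and 24.9 CPM in ff, and adventitial or submucosal fibroblast-like cells 83.2 CPM in GF and 72.7 CPM in ff. The Sfrp4-led cluster carried the most, at 147 CPM in GF and 123 CPM in ff. The 2 clusters of the Foxl1-high-like class differed in direction between libraries: the Nrg1/Ednrb-led one was at 28.3 CPM in GF and 17.4 CPM in ff (log2 ratio 0.67), and the Wif1-led one at 20.7 CPM in GF and 29.2 CPM in ff (-0.47). Fgf2 overlaps Nudt6 in the annotation, with the same limit on shared reads.

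Fgf18, a ligand of the Fgf8 subfamily, was nearly absent from Foxl1-high-like cells, with 1 UMI in 996 GF cells (0.132 CPM) and 22 UMIs in 2105 ff cells (1.14 CPM). The ratio without a pseudocount was 0.116, with a counting interval of 0.0028 to 0.718, and the gene was below the 50 UMIs of a measured one. It was highest in adventitial or submucosal fibroblast-like cells, at 12.7 CPM in GF and 13.4 CPM in ff. The Sfrp4-led cluster (18.9 CPM in GF, 17.4 CPM in ff) and the unnamed Myoc-led cluster (15.6 CPM in GF, 24.97 CPM in ff) led, and the closest gene in pattern was Sfrp4 itself, a secreted frizzled-related protein (r = 0.86).

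The receptors followed other cells than Fgf9 and Fgfbp1. Fgfr1 was present in every fibroblast-like class, at 356 CPM in GF and 314 CPM in ff in adventitial or submucosal fibroblast-like cells. Foxl1-high-like cells were among the lowest, at 125 CPM in GF and 138 CPM in ff. They did not differ from the smooth muscle-like class sum beyond counting error in either library. That sum pools unlike clusters, with the Myh11-led one at 93.2 CPM in GF and 103 CPM in ff. The Rgs5-led one was at 196 CPM in GF and 212 CPM in ff. Fgfr1 differed little between libraries in the 16 fibroblast-like clusters with at least 50 cells of each, with 0 past 2-fold and a median log2 ratio of -0.02.

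Fgfr2 was highest, by class, in lamina propria fibroblast-like cells. They were at 230 CPM in GF and 192 CPM in ff, led by the Col6a5-led cluster at 325 CPM in GF and 256.2 CPM in ff. Foxl1-high-like cells were at 11.2 CPM in GF (85 UMIs) and 12.2 CPM in ff (236 UMIs), close to adventitial or submucosal fibroblast-like cells at 9.02 CPM in GF and 13.2 CPM in ff. The lowest lamina propria cluster was the Igfbp3-led one, at 165 CPM in GF and 157 CPM in ff. The unnamed Cxcl9-led cluster came close to it in ff, at 155.96 CPM, but not in GF, at 98.6 CPM. Across the 42 cluster sums, Fgfr2 followed Fgf10 (r = 0.80) and Fgfr1 followed Fgf2 (r = 0.81), whereas Fgfr2 ran against Fgf9 (r = -0.41). The annotated span of Fgfr2, 130162451 to 133123350 on the minus strand, overlaps 30 protein-coding genes. Its RefSeq promoter window lies at 130266779 to 130267058, so much of that span is upstream of the RefSeq start. Overlap of spans is not overlap of exons, and whether any reads are shared was not tested. The 3′ counts do not tell the epithelial from the mesenchymal splice forms of the receptors.

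**Figure D5:**
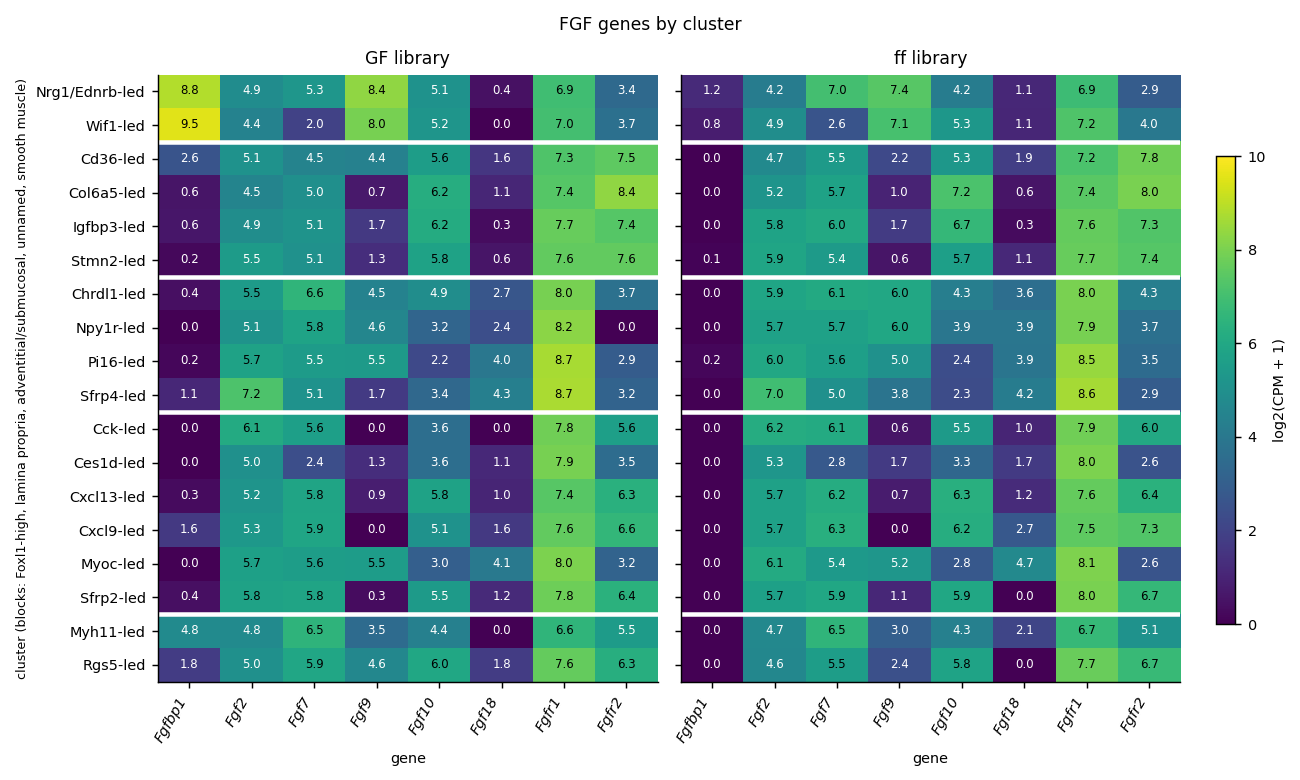
Level of the 8 FGF genes (columns) as log2(CPM + 1) in 18 mesenchymal clusters that hold 50 or more cells per library (rows, in blocks by class), GF on the left and ff on the right. The 2 Foxl1-high-like clusters in the top block carry Fgf9 in both libraries and Fgfbp1 in GF, while Fgfr2 and Fgf10 reach their highest values, 325 and 74.7 CPM in GF, in the Col6a5-led cluster of the lamina propria block.

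Set against other fibroblast-like cells, Foxl1-high-like cells of GF had 2 of 8 measured members at least 2-fold higher (Fgfbp1 and Fgf9) and 5 at least 2-fold lower (Fgf2, Fgf7, Fgf18, Fgfr1 and Fgfr2). The median log2 ratio of the members was -1.11, beside 0.17 for all 13434 measured genes, of which 7.35% were 2-fold higher and 8.78% 2-fold lower. In ff, 1 of 7 measured members was 2-fold higher (Fgf9) and 3 were 2-fold lower (Fgf2, Fgf18 and Fgfr2), with a median of -0.76. The background in ff was 5.91% higher and 7.86% lower of 13790 genes, with a median of 0.10. The cells compared were grouped on other genes of the same counts, and the comparison is a description. Fgfbp1 counts among the higher members of GF by the values that chose the set, and it was not measured in ff. Fgfr1 in GF lay at the threshold (log2 ratio -1.02) and stayed past it in 9 of 14 alternative settings. Fgfr2 in GF (-2.82) was at -0.86 under the marker gate, which ends its 2-fold call.

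Of the other FGF ligands, 13 genes, 1 was measured in Foxl1-high-like cells, Fgf1, at 11.7 CPM in GF and 11.8 CPM in ff. Fgf23, a hormone of phosphate balance named here after its values were seen, had 9 UMIs in GF and 91 UMIs in ff other fibroblast-like cells, and 0 in GF and 2 in ff Foxl1-high-like cells. Of the 4 intracellular FGF homologues, which are not secreted, 2 were measured in Foxl1-high-like cells. Of these, 1 was 2-fold higher in GF, beside 2.34% of all measured genes. Fgf12 was at 27.4 CPM in GF and 10.4 CPM in ff Foxl1-high-like cells (log2 ratio 1.32). Between libraries, none of the measured genes of the 7 lists differed 2-fold in other fibroblast-like cells on the scale with 1 CPM added. Of all 14425 genes measured there, only 1.34% were 2-fold higher and 1.65% 2-fold lower. The list medians lay between -0.15 and 0.25, beside 0.03 for all genes. The 1 CPM added understates genes of low level, such as Fgf23 (0.113 CPM in GF, 1.05 CPM in ff). The sulphotransferase gene Hs6st2 is another (1.57 CPM in GF, 0.394 CPM in ff, from 125 and 34 UMIs).

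Of 11 other receptors, co-receptors and binding proteins, 9 were measured between Foxl1-high-like and other fibroblast-like cells in each library, and 4 were 2-fold lower in each. These were Flrt1, Flrt2 and Flrt3, adhesion proteins that bind FGF receptors, and the receptor Fgfr4. Flrt2 was at 1.06 CPM in Foxl1-high-like and 70.1 CPM in other fibroblast-like cells of GF, and at 1.08 CPM and 52.9 CPM in those of ff. Of all measured genes, 8.78% were 2-fold lower in GF and 7.86% in ff. The list's median log2 ratio was -0.52 in GF and -0.34 in ff, beside 0.17 and 0.10 for all genes. Between libraries, 0 of 5 measured in Foxl1-high-like cells were 2-fold higher in GF and 1 was lower, beside 2.34% and 2.75% of all measured genes. The lower one was Flrt1, from 5 UMIs in GF and 53 UMIs in ff.

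The carriers and modifiers of heparan sulphate were 24 genes. Against other fibroblast-like cells, 1 of 24 measured was 2-fold higher and 5 lower in GF Foxl1-high-like cells. In ff ones 0 of 23 were higher and 6 lower. Of all measured genes, 7.35% were higher and 8.78% lower in GF, and 5.91% higher and 7.86% lower in ff. Gpc3, Ext1, Hs3st1 and Sulf2 were lower in both libraries, Hs6st2 in GF, and Sdc1 and Sdc3 in ff, and Sulf1 was the higher one in GF (160 CPM, against 57.5 CPM in other fibroblast-like cells). Sulf2, an enzyme that trims sulphate from heparan sulphate, stood at 2.37 CPM in Foxl1-high-like and 112 CPM in other fibroblast-like cells of GF, and at 5.83 CPM and 188 CPM in those of ff. The proteoglycan Gpc3 ran likewise, with log2 ratios of -3.72 in GF and -4.85 in ff. Between libraries, 4 of 22 measured in Foxl1-high-like cells were 2-fold higher in GF and 1 lower, beside 2.34% higher and 2.75% lower of all measured genes, with a median of 0.12 beside 0.11. Sdc3, a membrane proteoglycan, was at 47.8 CPM in GF and 17.6 CPM in ff (log2 ratio 1.39), and Sulf1, the relative of Sulf2, at 160 CPM in GF and 76.6 CPM in ff (1.05). The other higher genes were Gpc3 (74 UMIs in GF, 57 UMIs in ff) and Hs3st1 (49 UMIs in GF, 28 UMIs in ff), and the lower one was Sulf2 (18 UMIs in GF, 113 UMIs in ff). The genes of these sentences with few UMIs were named after their values were seen.

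Feedback inhibitors of FGF signalling, 12 genes of which 11 are in the tables, were then set between Foxl1-high-like and other fibroblast-like cells. Of 11 measured, 3 were 2-fold higher and 1 lower in GF, beside 7.35% higher and 8.78% lower of all measured genes, with a median log2 ratio of 0.91 beside 0.17. In ff, 4 were higher and 1 lower, beside 5.91% and 7.86% of all measured genes, with a median of 0.69 beside 0.10. The Sprouty gene Spry4 was at 222 CPM in Foxl1-high-like and 49.8 CPM in other fibroblast-like cells of GF, and at 134 CPM and 46.4 CPM in those of ff. Spry1 gave log2 ratios of 1.57 in GF and 1.06 in ff, and Il17rd, an FGF receptor antagonist, 1.34 in GF and 1.15 in ff. Spry2 was the fourth in ff, at the threshold, with 189.5 CPM in Foxl1-high-like and 94.2 CPM in other fibroblast-like cells. Rasa3, a GTPase-activating protein, was lower, at -2.10 in GF and -1.30 in ff.

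Between libraries, 0 of 10 measured inhibitors were 2-fold higher and 1 lower in GF Foxl1-high-like cells, beside 2.34% and 2.75% of all measured genes. The lower one was the phosphatase gene Dusp5 (14.4 CPM in GF, 37.8 CPM in ff). Spry4, Spry1 and Spry2 were higher in GF without reaching 2-fold (log2 ratios 0.73, 0.69 and 0.60). Dusp5 was also lower in other fibroblast-like cells of GF, at 25.2 CPM against 44.3 CPM in ff.

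Of 12 target genes of FGF and ERK signalling, 3 were 2-fold higher and 2 lower in Foxl1-high-like than in other fibroblast-like cells of each library. Of all measured genes, 7.35% were higher and 8.78% lower in GF, and 5.91% higher and 7.86% lower in ff. The list medians were 0.08 in GF and 0.07 in ff, beside 0.17 and 0.10 for all genes. The cell-cycle gene Ccnd1 (log2 ratios 2.52 in GF and 2.64 in ff) and the ETS factor Etv1 (2.04 in GF and 1.84 in ff) were higher. The third was its relative Etv4, at 6.73 CPM in Foxl1-high-like and 1.35 CPM in other fibroblast-like cells of GF, and at 4.80 CPM and 1.52 CPM in those of ff. Myc (-1.77 in GF and -1.67 in ff) and Fosl1 (-2.09 in GF and -1.39 in ff) were lower. Between libraries 0 of the 12 differed 2-fold in Foxl1-high-like cells, beside 2.34% higher and 2.75% lower of all measured genes. Of the 18 signal relay genes, 0 differed 2-fold in any of the 4 comparisons. For GF over ff in other fibroblast-like cells, 1.34% of all measured genes were higher and 1.65% lower.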

How the data were processed

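The deposited tables hold raw UMI counts per gene and cell barcode, made by the authors with Cell Ranger 6.0.0 on mm10 from 10x 3′ v3.1 libraries, per the submitters' processing notes and the labels' protocols; the annotation release and the strand setting are not given in the sources used here. Symbols and positions came from GENCODE vM21 (GRCm38), and promoter sequences from RefSeq (GRCm38.p6). Cells were kept that had 500 or more genes, 1000 or more UMIs and no more than 10% mitochondrial UMIs. Scrublet, run within scanpy 1.11.5, marked 767 GF barcodes (5.09%) and 538 ff barcodes (4.24%) as doublets, which were removed. Cells were clustered on 2000 variable genes and 30 components (Leiden resolution 1, leidenalg 0.10.2), which gave 29 clusters.

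A cluster was named only from marker lists, by thresholds set after the data were seen, and names rebuilt this way may differ from those of the study. UMIs were summed over the cells of a class and compared as log2(CPM + 1). A gene counted as measured with at least 50 UMIs over the 2 sums, and as called past 2-fold. Intervals are exact Poisson for levels, conditional binomial for ratios and Clopper-Pearson for shares (95%, scipy 1.17.1). PCR duplicates are removed by UMIs, but cells of 1 library are not replicates, so no p-value is given. The members and lists were chosen with earlier results of these data known. The genes named are the 8 members, for each the 3 genes most like it, up to 4 genes of each list with the largest ratios, and the neighbours of Fgfbp1. The comparison code was run on simulated sums with planted changes larger than 2-fold. The genes used had at least 200 UMIs, and the noise was counting error only. That run held no variation between libraries, so it cannot show how reliable the 2-fold calls are.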

Additional observations from a re-analysis of the deposited data

Results flagged for a closer look

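The pooled values of Fgf9 had opposite signs in the 2 groups of fibroblasts: its log2 ratio of GF over ff was 0.91 in Foxl1-high-like cells and -0.29 in other fibroblast-like cells. The second is not a direction shared by its clusters, since Fgf9 was higher in GF in the Pi16-led (0.41), Myoc-led (0.29) and Cd36-led (2.17) clusters and lower in the Chrdl1-led (-1.54) and Sfrp4-led (-2.12) ones. The pooled cells also differ in makeup, with 2223 GF and 118 ff cells in the Sfrp2-led cluster and 88 GF and 1414 ff cells in the Cck-led one, and the ratio was -0.27 without clusters mostly of 1 library. The same held for Fgfr1 with small values, at -0.14 in Foxl1-high-like cells and 0.11 in other fibroblast-like cells. With 1 library in each group, neither difference was tested.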

How the results depend on the processing

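Across 14 alternative settings, 1 of them added after the data were seen (leaving out 4 clusters mostly of 1 library), no direction that was called turned round. Fgfbp1 in Foxl1-high-like cells lay between 8.12 and 9.28 for GF over ff, with 9.28 at a pseudocount of 0.1 CPM. For the GF class over the other fibroblast-like cells of GF it was 9.91 at that pseudocount and 7.38 under the marker gate. The gate also brought the count of members past 2-fold for GF over ff in other fibroblast-like cells to 1, against 0 with clusters. That member was Fgfbp1, which chose the set. It had 159 UMIs in GF and 4 UMIs in ff cells outside the gate, against 45 and 2 UMIs in the other fibroblast-like clusters. Whether Foxl1-high-like cells that missed the gate supplied them was not tested. The other counts were 2 for GF over ff in Foxl1-high-like cells and 4 for Foxl1-high-like over other cells of ff in each setting, and 5 to 7 for GF. Of single-gene values, 353 stayed within their counting interval, 67 moved beyond it and 0 past 2-fold changed sign. Ratios near 0 did: Fgfr2 for GF over ff in Foxl1-high-like cells (-0.11) lay between -0.23 and 0.31 and kept its sign in 9 of 14 settings. Over all genes, the calls for GF over ff in Foxl1-high-like cells numbered 593, and 327 with at least 200 UMIs, and in other fibroblast-like cells 432, and 988 at a pseudocount of 0.1 CPM. No paired analysis was possible because each group is 1 library. Depth limits Fgf18 (1 UMI in GF Foxl1-high-like cells) and the ff values of Fgfbp1 (18 UMIs).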
